A study of Mus musculus with 4 samples.

Results

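Zinc finger protein genes were taken as all rows whose gene name begins with Zfp, Zbtb or Klf followed by a digit, or with Zkscan, in a table of polyA sites and their tags from mouse hippocampal CA1 neuropil. The rule gave 166 sites with 132 gene names, of 9297 sites and 7202 gene names in the table. The data came from cTag-PAPERCLIP, in which Pabpc1, a cytoplasmic polyA-binding protein, carries a GFP tag only after Cre recombination. Tagged protein is crosslinked to RNA by ultraviolet light and recovered through GFP, so that the sequenced fragments (tags) mark mRNA 3′ ends. All 4 libraries were of 1 group, C57BL/6 mice of the genotype Camk2a-Cre x Pabpc1-cTag, dissected for CA1 neuropil, the layer of dendrites, axons and glia beside the pyramidal cell bodies. The Camk2a promoter drives Cre in excitatory pyramidal neurons, and each library pooled tissue of several mice. Cell body libraries and untagged controls were not analysed here, so a tag share is neither an enrichment in neuropil nor a level above background.

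Most of these proteins fold short loops around zinc ions and use a row of such fingers to bind DNA. Many Zfp genes arose by tandem duplication and lie in clusters of similar copies, while Zbtb proteins add a BTB domain for protein contacts, Zkscan proteins a SCAN domain, and Kruppel-like factors bind GC-rich promoter sequences. Their proteins act mostly in the nucleus, and some of them, such as Zbtb20 in CA1 pyramidal cells, fix neuronal identity.

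The 3′ ends on which the results turn are shown first. They are the 7 sites that either had tags in at least 3 libraries or belong to Zfp365, the gene with the most tags, each as 30 bases of the GRCm38 (mm10) sequence on the strand of the site, with the listed position as base 15. Capitals mark the AATAAA or ATTAAA nearest to the listed position. The main Zfp365 site lies at chr10:67886112-67886141 (minus) and the weaker one at chr10:67887616-67887645 (minus). The others are at chr13:23353112-23353141 (minus), chr7:63886360-63886389 (minus), chr2:33406120-33406149 (minus), chr6:116624925-116624954 (minus) and chr15:36999011-36999040 (minus), in the order printed. All 7 lie in the annotated 3′UTR of the gene they are named for.
Zfp365 main site: tgaaatactatgatAATAAAgctatatttc
Zfp365 second site: tccccaaatgacactgttcctATTAAAgaa
Zfp322a: ctttaattcttaAATAAAgatttgttgtga
Klf13: gtgacgtttacattttgaAATAAAatttat
Zbtb34: atggaaattgctgtttgtaAATAAAaatgc
Zfp422: tatccttaaaAATAAAgattaagatatttt
Zfp706: tgtgctgtaatgtcttATTAAAgaagatgt

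Other sites that carried many zinc finger tags had a different sequence. Bc1 is a short noncoding RNA of rodent neurons with many related copies in the genome, and its first 74 bases were cut into 63 overlapping 12-base words. The 3 zinc finger sites with 10 or more of these words within 75 bases on either side are called Bc1-like. The first 30 bases of Bc1 (chr7:144914470-144914499, plus) are shown beside the best match at the sites named Zbtb25 (chr12:76333463-76333492, minus), Zbtb1 (chr12:76400118-76400147, plus) and Zfp990 (chr4:145575291-145575320, plus). Capitals mark bases that differ from Bc1, which are A11C for Zbtb1 and G1A for Zfp990, counted from the start of Bc1 with the Bc1 base first.
Bc1: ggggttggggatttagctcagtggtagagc
Site named Zbtb25: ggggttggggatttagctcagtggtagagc
Site named Zbtb1: ggggttggggCtttagctcagtggtagagc
Site named Zfp990: Agggttggggatttagctcagtggtagagc

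The 4 libraries held 16017, 6609, 5947 and 6099 tags, 34672 in all, and a count of 0 allowed a share of up to 0.0187%, 0.0454%, 0.0504% and 0.0492% (3 tags of the library). Bc1-like sites took 32.9%, 11.8%, 2.59% and 2.07% of the tags of replicates 1 to 4. The single site named Hdac8 alone held 4030, 1, 134 and 99 tags, or 25.2%, 0.0151%, 2.25% and 1.62% of these libraries. Among marker lists, 6 of 8 excitatory neuron genes had tags (0.459% ± 0.170 of the library, SD, n = 4), as did 5 of 5 oligodendrocyte genes (0.282% ± 0.177), 6 of 6 astrocyte genes (0.150% ± 0.0784), 4 of 6 interneuron genes (0.115% ± 0.0982) and 1 of 5 microglia genes (2 tags).

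Zinc finger genes together were a small and thinly covered share of the neuropil 3′ ends. They had 332 tags (0.958% of all), or 125, 101, 64 and 42 tags in replicates 1 to 4. These were 0.780% (95% Wilson interval 0.655 to 0.929), 1.53% (1.26 to 1.85), 1.08% (0.844 to 1.37) and 0.689% (0.510 to 0.929) of the libraries, with a mean of 1.02% ± 0.378 (SD, n = 4). Replicate 2 was the highest, and its interval did not overlap those of replicates 1 and 4. The 3 Bc1-like sites held 57 of the 332 tags, 6 in replicate 1, 51 in replicate 2 and none in the others. With Bc1-like sites removed from members and library totals, 163 sites and 275 tags were left, and the shares became 1.11%, 0.857%, 1.10% and 0.703% (0.943% ± 0.198, SD, n = 4), with replicate 2 no longer the highest. Because PCR copies of a fragment may be counted more than once, neither these intervals nor the later tests reach beyond counting error. Few cells that hold an mRNA and little of it per cell cannot be told apart in such libraries.

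**Figure D1:**
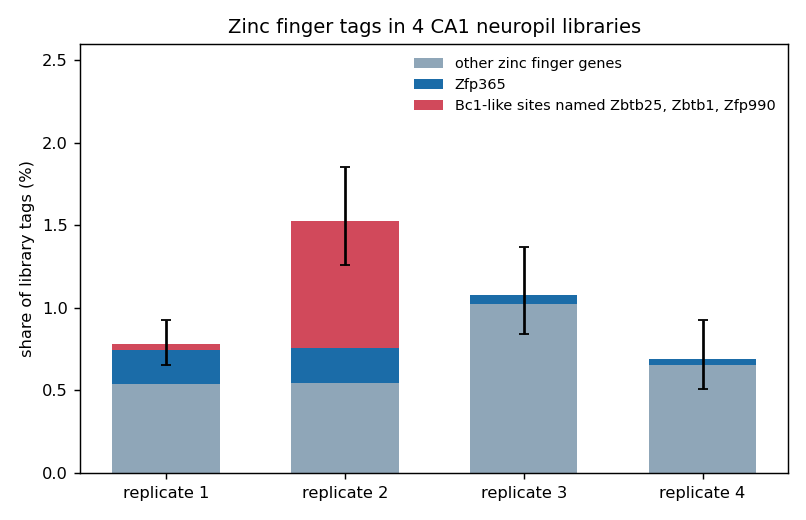
Share of the tags of each library (y axis, percent) at zinc finger sites in the 4 neuropil replicates (x axis), split into Zfp365, the 3 Bc1-like sites and all other zinc finger sites. Error bars are 95% Wilson intervals of the total, and the Bc1-like sites make up 0.772% of the 1.53% in replicate 2.

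By name, 107 Zfp genes carried 227 tags (0.673% ± 0.127 of the library, SD, n = 4). The 18 Zbtb names carried 92 tags, 21, 56, 11 and 4 in replicates 1 to 4 (0.307% ± 0.363), and without Bc1-like sites 36 tags, 16, 5, 11 and 4 (0.107% ± 0.0542, of the full library totals). They include Zbtb8os, named for its neighbour on the opposite strand and encoding a cofactor of tRNA ligation rather than a zinc finger protein, with 0, 2, 0 and 0 tags. The 4 Kruppel-like factor genes, Klf3, Klf6, Klf10 and Klf13, had 10 tags (6, 1, 2 and 1). The 3 Zkscan genes, Zkscan4, Zkscan6 and Zkscan16, had 1 tag each, none of them in replicates 1 and 3. Of the protein-coding genes in the GENCODE vM21 annotation that the rule names, 132 of 463 (28.5%) had a site in the table, beside 6437 of 21924 (29.4%) of all protein-coding genes. By name, these were 18 of 41 Zbtb genes (43.9%), 3 of 11 Zkscan genes (27.3%), 107 of 394 Zfp genes (27.2%) and 4 of 17 Klf genes (23.5%).

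Coverage per gene was low. A zinc finger gene had a median of 1 tag and a mean of 2.52, against 2 and 4.81 over all named genes. A single tag was all that 78 of the 132 genes had (59.1%, against 43.7% of all genes), and 3 genes (2.27%, against 7.40%) reached 10 tags. Those were Zfp365 with 52, Zbtb25 with 39 and Zbtb1 with 19 tags, together 33.1% of the zinc finger tags, and none of the other 129 genes had more than 7.

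**Figure D2:**
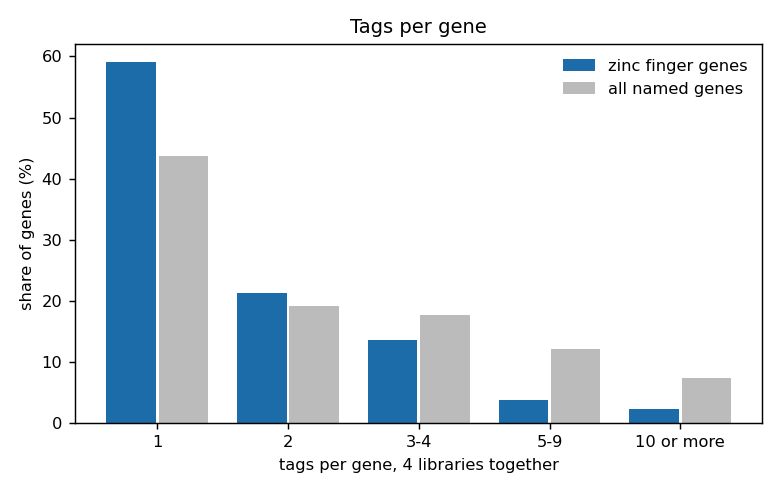
Share of genes (y axis, percent) by the number of tags over the 4 libraries together (x axis), for the 132 zinc finger genes and for all 7202 named genes. At 1 tag were 59.1% of zinc finger and 43.7% of all genes, and at 10 or more 2.27% and 7.40%.

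Tags in more than 1 library were found for 41 zinc finger genes (31.1%), and the background over all genes was 47.4%. By site the count was 29 of 166 (17.5%), with a background of 34.2% over all sites. Of the other 137 zinc finger sites, 49 had tags only in replicate 1, 25 only in replicate 2, 37 only in replicate 3 and 26 only in replicate 4. Among sites with 2 tags, 15 of 30 zinc finger sites were seen in more than 1 library (50%, against 61.4% of all sites with 2 tags), as were 7 of 8 with 3 tags (87.5%, against 85.3%). Among genes with 2 tags this was 20 of 28 (71.4%, against 65.2%), and with 3 tags 9 of 14 (64.3%, against 87.7%). At equal counts the zinc finger shares thus lay above those of the table in some classes and below them in others. Only the main Zfp365 site had tags in all 4 libraries.

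Zfp365, a zinc finger protein known to bind DISC1 and to act in neural development, was the best covered member at an ordinary mRNA end. Its main site had 32, 14, 2 and 2 tags in replicates 1 to 4. The listed position lies 24 bases upstream of the annotated end of the gene (chromosome 10, positions 67886103 to 67912662, minus strand), an AATAAA starts at it, and the 30 bases that end there occur once in the genome. The second site, 1504 bases closer to the coding sequence, had 1, 0, 1 and 0 tags. The gene as a whole had 33, 14, 3 and 2 tags, or 0.206% (0.147 to 0.289), 0.212% (0.126 to 0.355), 0.0504% (0.0172 to 0.148) and 0.0328% (0.00899 to 0.119) of the libraries (0.125% ± 0.0969, SD, n = 4). Replicates 1 and 2 were thus about equal and both above replicates 3 and 4, and the interval of replicate 4 overlapped neither of theirs. Over all genes with at least 10 tags, an exact multinomial test of the tags against the library totals called 218 of 533 genes (40.9%) at a Benjamini-Hochberg adjusted p under 0.05. It called all 3 zinc finger genes tested, too few for a statement about the group. For Zfp365 the adjusted p was 0.00832 in this exact test, and 0.0801 without replicate 4. With Bc1-like sites removed the test called 185 of 501 genes (36.9%), and Zfp365 was the sole zinc finger gene tested, with an adjusted p of 0.000404 in the exact test. Zfp365 reached the minimum of 10 tags only through replicates 1 and 2, where it was high, with 3 and 2 tags in replicates 3 and 4. These calls are thus no independent support for the difference. The test compares these libraries and not conditions. Oligodendrocyte marker genes also had a higher share in replicates 1 and 2 (0.281% and 0.530%) than in replicates 3 and 4 (0.185% and 0.131%), and astrocyte markers were at 0.262%, 0.136%, 0.118% and 0.0820%. Excitatory neuron markers were at 0.468%, 0.257%, 0.437% and 0.672%, and interneuron markers at 0.0499%, 0.0303%, 0.135% and 0.246%. Over totals without Bc1-like sites, Zfp365 was at 0.307%, 0.240%, 0.0518% and 0.0335%, oligodendrocyte markers at 0.419%, 0.600%, 0.190% and 0.134%, and astrocyte markers at 0.391%, 0.154%, 0.121% and 0.0837%. On that scale excitatory neuron markers were at 0.698%, 0.291%, 0.449% and 0.686%, with replicate 1 about equal to replicate 4, and interneuron markers at 0.0744%, 0.0343%, 0.138% and 0.251%. Mbp held 55 of the 99 oligodendrocyte tags, Slc1a2 26 of the 63 astrocyte tags, Camk2n1 85 of the 159 excitatory neuron tags and Npy 22 of the 33 interneuron tags. A list may therefore follow 1 gene more than a cell type. The part of these cell types in the Zfp365 result was not tested.

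The next names by tags, Zbtb25 and Zbtb1, rested on Bc1-like sites. Zbtb25, a BTB zinc finger studied in T cells, had 3, 36, 0 and 0 tags, all at 1 site 14.3 kb past the annotated end of the gene and on the opposite strand of Akap5. All 63 Bc1 words were found around that site, and the 30 bases that end there occur 48 times in the genome. Zbtb1, needed for lymphocyte development, had 2, 15, 1 and 1 tags, of which 2, 15, 0 and 0 lay 3.23 kb past the end of the gene at a site with 30 of the Bc1 words and 4 copies of its 30 bases. The remaining 2 Zbtb1 tags, in replicates 3 and 4, were at separate sites in the 3′UTR of the gene, of which one lies 21 bases upstream of the annotated end. Zfp990 had 1 tag, in replicate 1, at a site 36.1 kb past the end of the gene with 37 Bc1 words and 22 copies. No AATAAA or ATTAAA lay within 50 bases of any of the 3 sites. Both Zbtb genes were highest in replicate 2, with adjusted p of 1.36e-20 for Zbtb25 and 4.41e-07 for Zbtb1 in the exact multinomial test. They reached the minimum of 10 tags only through replicate 2, with 3 and 4 tags in the other libraries together, so these calls are no independent support for the difference. The tags at these sites cannot be assigned to Zbtb25, Zbtb1 or Zfp990 from the sequence.

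**Figure D3:**
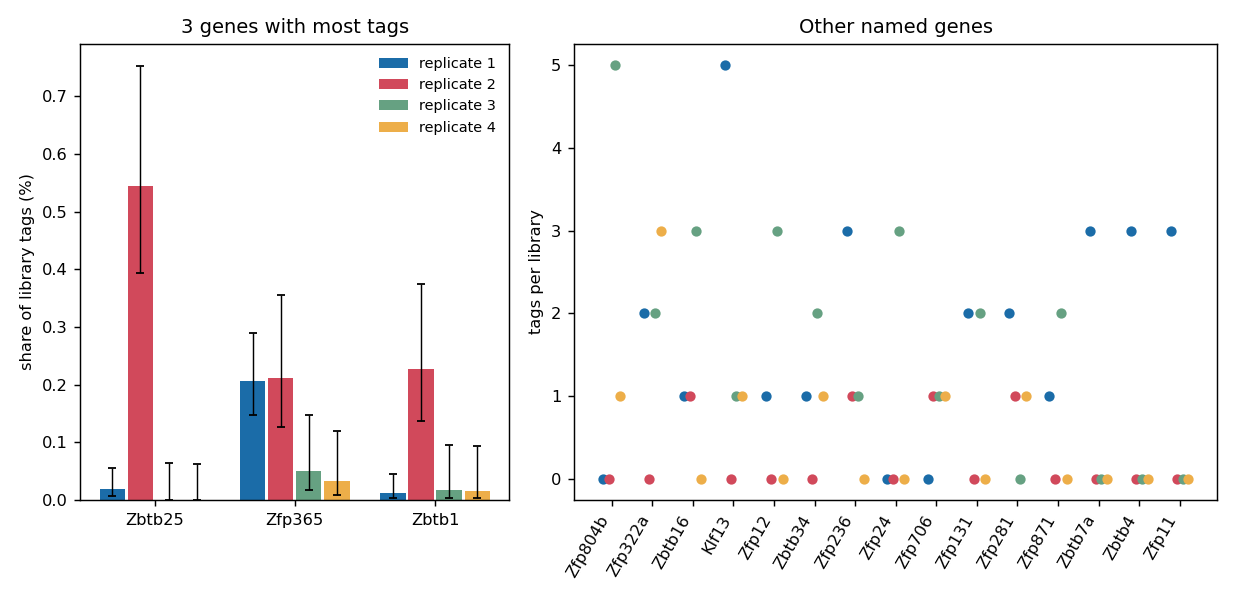
Left, share of library tags (y axis, percent, bars with 95% Wilson intervals) for the 3 zinc finger genes with most tags. Right, tags per library (y axis) for the other 15 named genes, with each point a replicate in the colours of the left panel, slightly offset so that none overlap. Zbtb25 and Zbtb1 stand high in replicate 2 alone, Zfp365 in replicates 1 and 2, and no gene on the right has more than 5 tags in a library.

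Below these the counts were small, and several genes had tags in 3 libraries at a site in their annotated 3′UTR. Zfp322a, linked to stem cell pluripotency, had 2, 0, 2 and 3 tags at a site 24 bases upstream of the end of the gene. Klf13, a Kruppel-like factor studied in lymphocytes and neurons, had 4, 0, 1 and 1 tags at a site that was also 24 bases upstream of its end, and 1 tag in replicate 1 at a site 5025 bases closer to the coding sequence. Zbtb34 had 1, 0, 2 and 1 tags at a site 27 bases upstream of its end. None of these 3 genes had a tag in replicate 2, and each had tags in the other 3 libraries. Zfp706, implicated in the exit of stem cells from self-renewal, had 0, 1, 1 and 1 tags at a site 1999 bases upstream of its end. Zfp422 had 1, 0, 1 and 1 tags at a site 924 bases upstream of its end, but the 30 bases there occur 2 times in the genome.

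Other genes of the leading 15 by mean share had few tags, several of them far upstream of the annotated end. Zfp281, a repressor in pluripotent cells, had 2, 1, 0 and 1 tags, of which 3 lay 1781 bases upstream of its end. Zfp236 had 3, 1, 1 and 0 tags, of which 4 lay 1890 bases upstream of its end with no AATAAA or ATTAAA within 50 bases. Zfp12 had 1, 0, 3 and 0 tags, Zfp131 had 2, 0, 2 and 0, and Zfp871 had 1, 0, 2 and 0. The 3 Zfp24 tags, from a gene known to be needed for myelination, all came from replicate 3. None of these genes had tags in all 4 libraries.

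For some names the tags lay outside any annotated mRNA end. Zfp804b, a relative of the schizophrenia-associated Zfp804a, had 0, 0, 5 and 1 tags at 3 sites, of which 2 were intronic and the other 987 kb past the end of the gene, with 8 copies of the 30 bases at 1 of the intronic sites and 7 copies at the distant site. Zbtb16, known as the repressor PLZF, had 1, 1, 3 and 0 tags, with 2 of them at an intronic site whose 30 bases occur 1530 times and the others 2.24 and 2.47 kb past its end. The 3 tags of Zfp11 were all from replicate 1 and lay 527 kb past its end, at a site with 4 copies. With the minimum lowered to 5 tags, the exact multinomial test called 268 of 1408 genes (19.0%) and 4 of 8 zinc finger genes, adding Zfp804b with an adjusted p of 0.00297 to the 3 above. Zfp804b reached 5 tags only through replicate 3, where it was high, so this call supports nothing further. The other 4 genes, Zbtb16, Zfp322a, Klf13 and Zfp236, had adjusted p between 0.183 and 0.935 in this exact test, and differences between libraries were not detectable for them at this depth.

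Some genes with at most 3 tags have well known roles. Zbtb4, which binds methylated CpG, and Zbtb7a, a repressor of fetal globin genes, had 3 tags each, all in replicate 1, as had Zfp398. The others in this paragraph were picked for their roles after their values were seen. Zbtb18, a repressor in developing cortical neurons, had 2 tags in replicate 1 at a site 56 bases upstream of its end, where the 30 bases occur 3 times in the genome. Several zinc finger proteins act on RNA or ribosomes rather than DNA. Of these, Zfp346, which binds double-stranded RNA, had 2, 0, 1 and 0 tags at a site 19 bases upstream of its end. Zfp36, the mRNA decay factor tristetraprolin, had 1 tag in replicate 1, and so had Zfp593, a factor of the large ribosomal subunit. Zfp598, which senses collided ribosomes, and Zfp622, another large subunit factor, had 1 tag each in replicate 4. A single tag is under the limit that a count of 0 allows, so no order between these genes or libraries can be read from it.

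The place and sequence of the sites, which the rule did not use, gave shares close to those of the whole table. In the annotation 125 of 166 zinc finger sites lay in a 3′UTR (75.3%, against 76.5% of all placed sites), 27 between genes, 12 in introns and 2 in noncoding exons. An AATAAA or ATTAAA on the strand of the site started and ended within 50 bases on either side of 133 sites (80.1%, 95% Wilson interval 73.4 to 85.5, against 78.1% of all sites). Within 3′UTRs this was 84.8% against 83.1%, and outside them 65.9% against 61.8%. The nearest signal started at a median of 2 bases upstream of the listed position in both sets (offset -2). Of the sites within 100 bases of the annotated end of their gene, 58 of 59 zinc finger sites were upstream of it or at it, by a median of 24 bases, which was also the median over all such sites.

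**Figure D4:**
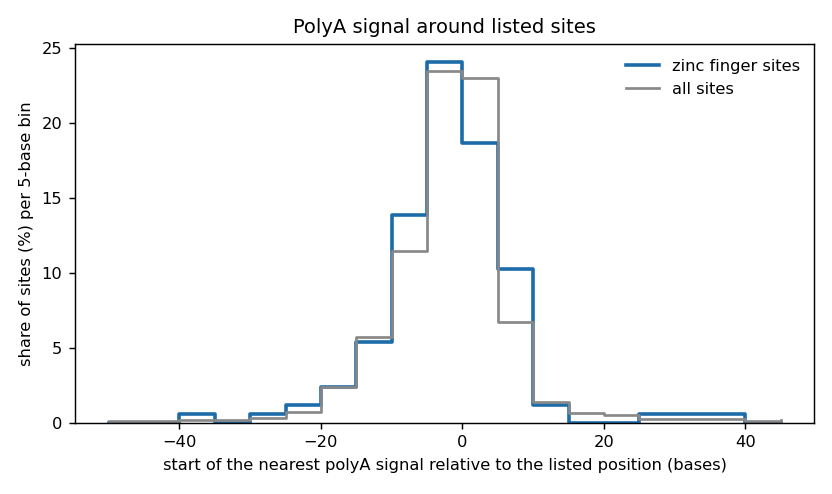
Share of sites (y axis, percent, bins of 5 bases) by the start of the nearest AATAAA or ATTAAA relative to the listed position (x axis, bases, negative upstream), for 166 zinc finger and 9294 placed sites. Both curves peak in the bin just upstream of the listed position (24.1% and 23.5%).

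By tags, 79.2%, 38.6%, 79.7% and 85.7% of the zinc finger tags in replicates 1 to 4 lay in 3′UTRs (70.8% ± 21.7, SD, n = 4). Replicate 2 stood apart, and without Bc1-like sites the share was 83.2%, 78.0%, 79.7% and 85.7% (81.6% ± 3.47), beside 84.6% ± 7.68 for all sites treated alike. Repeated sequence was found at 23 zinc finger sites (13.9%, against 10.9% of all sites), counted as sites whose 30 bases occur more than once. Most lay outside 3′UTRs, where 16 of 41 zinc finger sites were repeated (39.0%, against 28.6% of all sites there), against 7 of 125 within 3′UTRs (5.60%, against 5.47%).

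More than 1 site was listed for 28 zinc finger genes (21.2%, against 21.7% of all genes), with a median distance of 1705 bases between the outermost sites. In 7 of them the distance was over 10 kb, up to 1349134 bases in Zfp804b, and in all 7 at least 1 of these sites lay in an intron or between genes, so not all are alternative ends of 1 mRNA. The most distal site held 50, 33, 15 and 7 tags in replicates 1 to 4 and the most proximal site 19, 4, 15 and 2, a distal share of 72.5%, 89.2%, 50% and 77.8% (72.4% ± 16.5, SD, n = 4), and 74.2% ± 11.3 in the 21 genes whose sites lay within 10 kb. More tags were distal in 8 genes and proximal in 5, and 15 had equal tags. The sum rested on Zfp365, with 50 distal and 2 proximal tags, and on the Bc1-like distal site of Zbtb1 with 17. Proximal sites led in Zfp236 (4 against 1), Zfp281 (3 against 1), Zfp12 (3 against 1) and 2 other genes.

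Chromosomes 7 and 13 held the most member genes. Chromosome 7 held 25 of the 132 zinc finger genes (18.9%) and 96 of the 463 annotated ones (20.7%), chromosome 13 held 13 (9.85%) and 40 (8.64%), and chromosome 17 held 11 (8.33%) and 50 (10.8%). On these chromosomes 26.0%, 32.5% and 22% of the annotated zinc finger genes were listed, against 20.8%, 29.4% and 25.2% of all protein-coding genes there. Elsewhere the share listed ran from 16.7% on chromosome 11 (4 of 24, against 30.5%) to 62.5% on chromosome 1 (5 of 8, against 32.7%), leaving aside the chromosomes with none. No listed name was on chromosome 19 or X, where the annotation has 5 and 11 such genes, but tagged sites under other names lay in Klf9 and Zfp91 on chromosome 19 and in Zfp185 on chromosome X. Genes with another of these names within 100 kb were listed in 51 of 243 cases (21.0%), and those without in 81 of 220 (36.8%). All protein-coding genes were listed in 29.4% of cases, and the difference was not tested. Of the listed genes, 14 of 51 clustered (27.5%) and 27 of 81 unclustered (33.3%) had tags in more than 1 library, against 47.4% of all genes. The 30 bases were repeated at 11 of 63 sites of clustered genes (17.5%) and 12 of 103 of the others (11.7%), against 10.9% of all sites.

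The names in the table and in the annotation differed at some sites. Of the 166 zinc finger sites, 32 with 93 of the 332 tags were assigned to no annotated gene of these names, among them the Klf3 site, which lies inside Klf3 but in an exon of an overlapping gene. Outside the annotated gene of their own name lay 35 sites (21.1%, against 23.5% of all placed sites). Some of these, named Zfp58, Zbtb26, Zfp729b and Zfp963, lay in the 3′UTRs of Zfp87, Zbtb6, Zfp729a and Zfp866, and are counted as 3′UTR sites above. A further 15 sites with 26 tags lay in an annotated gene of these names, but carried the name of a microRNA or another gene. In Klf9, a Kruppel-like factor induced by hormones in neurons, 2 sites of the 3′UTR named Mir1192 had 4 tags (2, 0, 0 and 2) and 1 tag (replicate 4). In Klf7, which acts in axon outgrowth, 2 sites named Mir6899 had 3 tags (1, 0, 1 and 1) and 2 tags (1, 0, 1 and 0). Zbtb20 had 0, 0, 1 and 1 tags at 2 sites under its own name, and 2 further sites in its 3′UTR, named Mir568, had 2 tags each (1, 0, 1 and 0 for the one and 1, 1, 0 and 0 for the other). With annotated names used throughout, the share of all zinc finger genes was 0.782% ± 0.179 in place of 1.02% ± 0.378 (SD, n = 4). The Zbtb share was 0.118% ± 0.0598 in place of 0.307% ± 0.363, the Zfp share 0.599% ± 0.118 in place of 0.673% ± 0.127, and the Kruppel-like factor share 0.0551% ± 0.0287 in place of 0.0257% ± 0.0115.

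Zinc finger transcription factors with other names were listed from a fixed set of 50 genes. The set was chosen with earlier results of these data known, so its shares describe the chosen genes and not zinc finger factors in general. Of these 31 had tags (62%, against 29.4% of all protein-coding genes), 133 in all (44, 38, 26 and 25 in replicates 1 to 4; 0.424% ± 0.123 of the library, SD, n = 4), and 16 were seen in more than 1 library (51.6%, against 47.4% of all genes). Hivep3 had the most tags with 20, followed by Hivep2 with 15, the activity-regulated factor Egr3 with 13, and Bcl11b with 12.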

How the data were processed

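The authors deposited tag counts per 1-base polyA site, gene name and replicate. The counts are whole numbers, not normalized. By their title they are neuropil tags that overlap Camk peaks, so the listed sites may be limited to peaks set beforehand. Their shares therefore may not describe sites found in neuropil alone. The submitters' processing notes name cutadapt, Novoalign and mm10, and the study's methods name CTK for clustering; handling of duplicate and repeat-matching tags is not given in the sources used here. The members, gene lists and alternatives were chosen with earlier results of these data known.

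Of 9297 sites, 9294 lay on chromosomes 1 to 19, X and Y, none past a GRCm38 chromosome end, and were classed by GENCODE vM21 on their strand with 3′UTR taking precedence over coding exon, then 5′UTR, then noncoding exon, then intron, and the rest between genes. Shares are percent of a library's tags, with 95% Wilson intervals. Exact multinomial tests (chi-square above 200 tags) used genes with at least 10 tags, adjusted over all of them, threshold 0.05, and were tested on simulated data. Exact copies of 30 bases were counted on both strands. Named genes had tags in all 4 libraries, were among the 15 with the highest mean share, passed the library test, had several sites each in more than 1 library, or were the 3 with most tags outside their gene or in a single library (ties in alphabetical order, which left out Zfp11 in the first case and Zfp24 and Zfp398 in the second); further names were chosen after their values were seen. Sequences were read from the RefSeq GRCm38 genome. Python 3.11.15, pandas 2.3.3, numpy 2.4.6 and scipy 1.17.1 were used. Each replicate pooled several mice by the study's methods, and the labels do not name the animals. The p-values measure departure from counting error with tags taken as independent, and not the spread between animals.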

Additional observations from a re-analysis of the deposited data

Results flagged for a closer look

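In 25 sets of 4 values (1 per library) the gap between the extreme library and its nearest neighbour was divided by the whole range, and 10 passed Dixon's 95% critical value for 4 values; chance flags about 1 in 20 sets of independent, unselected values. That rate does not apply here, because several genes were named for standing high in a single library or for passing the library test, and the Zbtb share contains Zbtb1 and Zbtb25. Replicate 2 was the extreme for the Zbtb share (0.847), Zbtb1 (0.980), Zbtb25 (0.966) and, on the low side, the 3′UTR share of zinc finger tags (0.862), and 51 of its 101 zinc finger tags were at Bc1-like sites. The ratio was 1 for Zbtb4, Zbtb7a and Zfp11, with tags only in replicate 1, and for Zfp24, with tags only in replicate 3. Each had 3 tags, and tags in a single library fix this ratio at 1, so it says nothing about these genes. Zfp12 was highest in replicate 3 (0.876; 3 of 4 tags), and Zfp706 was lowest in replicate 1 (0.900), where it had no tag.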

How the results depend on the processing

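Of 105 alternative values for the main results, 87 stayed within the spread between replicates, within the interval or within 1.5 times the count. These include the Zbtb share, 0.307% ± 0.363, which was 0.127% without replicate 2. It counts as within the spread because its SD exceeds its mean. With only sites seen in more than 1 replicate, the zinc finger share was 0.538%, the Zfp share 0.291% and the distal share 90.9%. Annotated names gave a Klf share of 0.0551%. Zinc finger sites in more than 1 replicate (29) numbered 11 to 23 when a replicate was left out, 11 without replicate 1, 18 without replicate 2 and 18 without replicate 3. They numbered 1 when all 4 replicates were required and 4 with at least 2 tags per replicate. The corresponding genes (41) numbered 19 to 31, 19 without replicate 1 and 23 without replicate 3, and were 2 and 5 under those criteria. Genes called in the library test (218) were 126 without replicate 2, and zinc finger genes called (3) were 1 without replicate 2 and 1 with Bc1-like sites left out, an alternative chosen after seeing the data. Leaving out a replicate gave from 126 to 185 genes and from 1 to 3 zinc finger genes. Over its alternatives the adjusted p of Zfp365 ran from 0.000324 to 0.0801, and it exceeded 0.05 only without replicate 4. A polyA signal was found at 30.1% of zinc finger sites with a search of the 50 bases upstream only (30.3% of all sites) and at 62.7% with AATAAA alone. No paired analysis was possible because the labels give 1 group. Depth limits all of this: 121 of 166 sites had a single tag.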
